A study of Mus musculus with 6 samples.

Results

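The genes described here encode class I heavy chains of the mouse major histocompatibility complex, the class I-like heavy chain Cd1d1, which lies outside that complex, and proteins of the class I peptide supply and its regulation. They are H2-K1, H2-D1, H2-L, H2-T23, H2-M3 and Cd1d1 among the heavy chains, the transporter subunits Tap1 and Tap2, the trimming peptidase Erap1, and the regulator Nlrc5. They were chosen by gene symbol, and all 10 had a row among the 24346 genes measured. RNA sequencing compared CT26 cells, a mouse colorectal tumor line retrovirally transduced with mouse MR1 (CT26.mMR1, titled CT26_cl9 and called parental here), with M8 (titled CT26_cl9_M8), a mutant obtained from them with the mutagen N-ethyl-N-nitrosourea (ENU). Both lines overexpress MR1, the class I-like molecule that presents small metabolites to mucosal-associated invariant T cells, and 3 RNA samples of each were sequenced. M8 is 1 clone, isolated by limiting dilution. The study followed it because it raised the activity of a T cell reporter line and had more surface MR1 than the parental cells. A difference between the lines therefore cannot be told apart from a difference between clones.

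A classical class I molecule is a heavy chain bound to beta 2-microglobulin and to a short peptide. The proteasome and cytosolic peptidases cut proteins into peptides, the TAP transporter carries these into the endoplasmic reticulum, Erap1 trims them there, and the loading complex fits them to the heavy chain. Nlrc5 drives transcription of the class I genes from their promoters, as Ciita does for class II genes. Class I molecules show peptides to CD8 T cells, and their loss is a known route by which tumors escape such cells. MR1 also pairs with beta 2-microglobulin but carries small metabolites in place of peptides.

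Classical class I promoters are known for a set of short elements bound by their regulators, and the stretches that hold such elements are shown so that the members can be set side by side. Of the 10 genes, 6 had at least 1 promoter in the RefSeq table (GRCm38.p6), and the 250 bases before each start site were searched on both strands for 4 motifs. These were a kappaB motif (GGGGA and TCCCC with any base between them), an interferon-stimulated response element (AAGTGAAA, or TTTCACTT on the other strand), the core of the X2 box (TGACGC) and the Y box (CCAAT, or ATTGG on the other strand). The motifs do not overlap one another in the stretches shown, which read 5′ to 3′ on the strand of the gene with the matches in capitals.
H2-D1, chr17:35262917-35263051, plus strand: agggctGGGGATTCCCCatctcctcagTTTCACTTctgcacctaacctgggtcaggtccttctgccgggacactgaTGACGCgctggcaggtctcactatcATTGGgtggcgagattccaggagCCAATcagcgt
H2-K1, chr17:34000353-34000464, minus strand: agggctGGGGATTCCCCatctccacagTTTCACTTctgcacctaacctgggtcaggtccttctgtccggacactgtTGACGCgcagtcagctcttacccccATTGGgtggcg
H2-M3, chr17:37270099-37270223, plus strand: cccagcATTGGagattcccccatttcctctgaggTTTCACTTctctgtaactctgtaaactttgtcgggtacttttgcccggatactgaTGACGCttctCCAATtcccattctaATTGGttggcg
H2-T23, chr17:36032743-36032759, minus strand: taaaagCCAATcagcga
Tap1, chr17:34187328-34187344, plus strand: ggctttCCAATcagcgg

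H2-D1 and H2-K1 held all 4 motifs in the same order. In H2-D1 the kappaB match lay at -171 to -161 from the start site and the X2 match at -101 to -96, and in H2-K1 they lay at -111 to -101 and -41 to -36. H2-K1 has 2 entries, and its distances and stretch are from the start site of the entry used. H2-M3 held the interferon-stimulated element, the X2 core and 3 Y box matches, but no kappaB match as spelled here. H2-T23 and Tap1 held only a Y box match, and Erap1 held none of the 4. Of 32851 mouse promoters of the same length, 0.0457% held the kappaB motif, 1.36% the interferon-stimulated element, 6.12% the X2 core and 33.8% the Y box. All 4 occurred together in 3 promoters, which were those of H2-D1 and the 2 entries for H2-K1. The motifs were chosen after the promoters of these genes had been read, so the shares are no test of how rare the matches are. A match is a description of the letters, and factor binding was not measured.

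Among these genes, 6 lie on chromosome 17 in the GRCm38 annotation (GENCODE M21): H2-K1 at 33996017-34000347, Tap1 at 34187553-34197225, Tap2 at 34203527-34216321, H2-D1 at 35262730-35267499, H2-T23 at 36029773-36032855 and H2-M3 at 37270220-37274484. Erap1 lies on chromosome 13 at 74639568-74693201, Nlrc5 on chromosome 8 at 94434356-94527272 and Cd1d1 on chromosome 3 at 86995834-86999441. All 9 are annotated as protein coding. H2-L had no entry under that symbol in this annotation, so no position is given for it. How reads came to be assigned to H2-L was not tested. This annotation and RefSeq place some start sites differently, so the stretches printed for H2-D1 and H2-T23, and the last bases of that for H2-M3, lie inside the gene spans given here. Heavy chain genes resemble each other closely. Of the windows of read length in the H2-T23 transcript, 7.07% occurred exactly in another gene and 28.6% came within 2 mismatches of a related class I gene. The corresponding shares were 4.60% and 11.9% for H2-D1 and 0% and 11.3% for H2-K1, whereas H2-M3 had no such window. Reads of these genes could therefore be assigned to each other. CT26 derives from BALB/c mice, whose class I alleles differ from those of the C57BL/6 reference, and the effect of this on the levels of the heavy chains was not tested. Tap1 shares 212 exonic bases with Psmb9 on the opposite strand, Erap1 shares 834 with Cast, Tap2 shares 533 with Gm15821 and 165 with Gm20496, and Nlrc5 shares 78 with 9330175E14Rik. The libraries were stranded, but whether the counting used strand is not given in the sources used here.

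The values are FPKM, which are scaled for transcript length and for the mapped fragments of a library, so levels can be set side by side between genes, within the limits just given for reads shared between heavy chain genes and for their alleles. From the steps of low values, the parental libraries held 0.949 to 1.07 times the reads of parental replicate 1 and the M8 libraries 0.772 to 0.875 times. M8 was thus less deep throughout, and its part in the results was not tested. Among 11 colon epithelium markers, Epcam, Cdh1, Krt19 and Cdx2 were listed at 0 in every sample, 8 stayed under 1 FPKM, and the summed level was 41.9 to 57.7 FPKM in parental samples and 48.2 to 50.2 FPKM in M8. Of the 3 tested, Krt20 (log2 fold change -0.50, limma adjusted p = 0.00438) and Lgals4 (-0.66, adjusted p = 0.00728) were lower in M8. Krt18, the other gene tested, did not pass (0.18, limma adjusted p = 0.321). All 11 leukocyte markers stayed under 1 FPKM, with summed levels of 0.172 to 0.607 FPKM in parental samples and 0.0732 to 0.286 FPKM in M8. In bulk RNA, fewer cells with a transcript and less transcript per cell cannot be told apart.

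H2-D1, a classical heavy chain that presents peptides to CD8 T cells, was by far the most abundant of these transcripts. Its mean over the 6 samples was 702 FPKM, higher than 99.5% of the 24346 genes. Tap2 followed at 60.9 FPKM, then H2-M3 at 38.9 and Tap1 at 37.6 FPKM, whose ranges overlapped in both lines. Erap1 (17.8 FPKM), H2-T23 (12.4 FPKM), H2-K1 (10.7 FPKM), Nlrc5 (5.11 FPKM) and H2-L (3.54 FPKM) followed in that order. H2-T23 and H2-K1 overlapped in parental cells but stood apart in M8, and the same held for Nlrc5 and H2-L. Cd1d1, which presents lipids to NKT cells, was listed at 0 in all 6 samples. Of the summed level of H2-K1, H2-D1 and H2-L, H2-D1 made up 97.1% to 98.6% in the 6 samples, H2-K1 1.04% to 1.77% and H2-L 0.239% to 1.18%, all as assigned to the reference alleles.

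**Figure D1:**
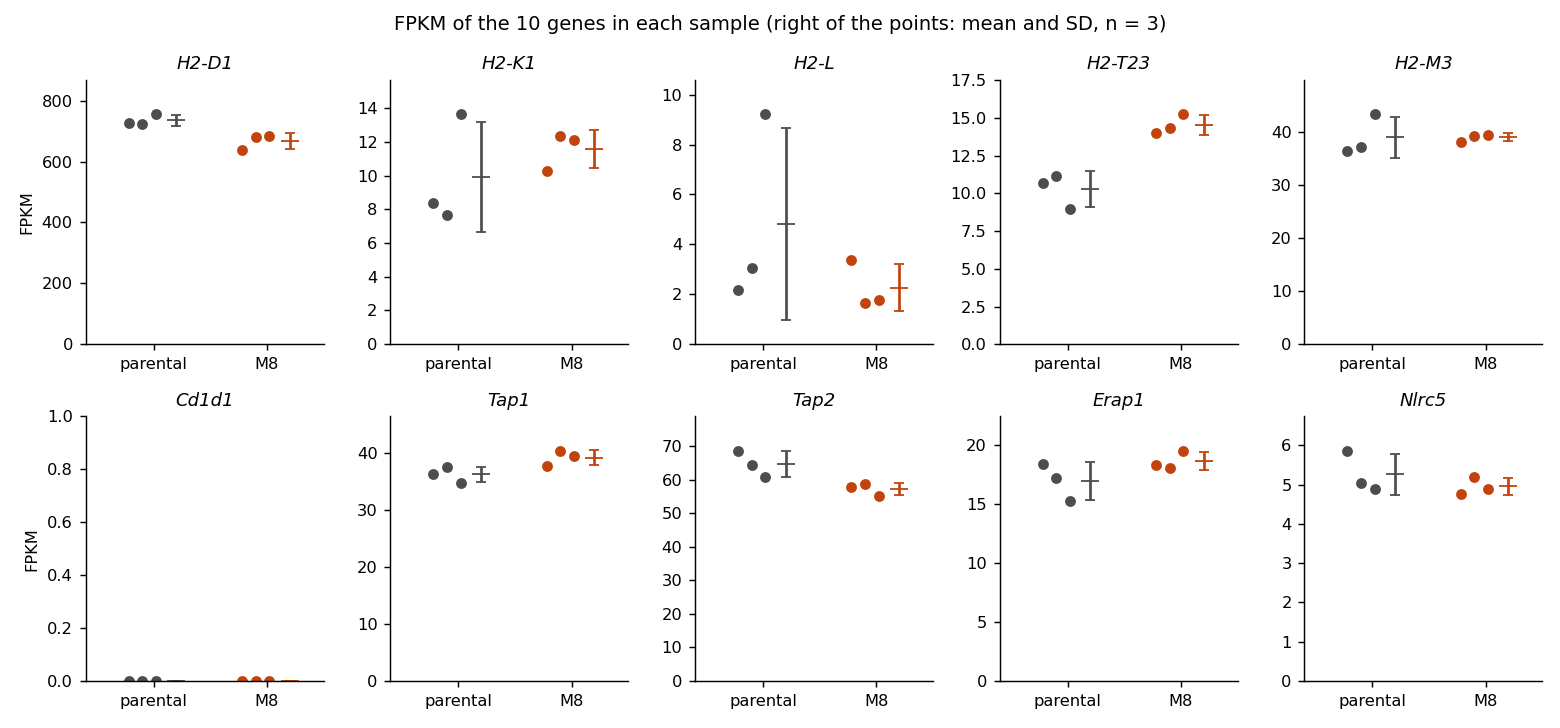
Each panel plots the level of 1 gene in FPKM for the 3 parental and the 3 M8 samples, with the mean and SD (n = 3) to the right of the points and an axis that starts at 0. The M8 points of H2-T23 and Tap1 lie above all parental points, those of H2-D1 and Tap2 below, and Cd1d1 is at 0 throughout.

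The question for these genes was whether the route that loads classical class I molecules differs between M8 and the parental line. In limma's test, with p-values adjusted over all 10597 genes with a mean of at least 1 FPKM, 1 of the 9 genes tested was higher in M8 (H2-T23) and 2 were lower (H2-D1 and Tap2), at an adjusted p below 0.1. Of all genes tested, 21.2% were higher and 16.5% lower, or 37.7% in either direction. The 9 genes had a median change of 0.0048 on the log2 scale, against 0.0069 for all genes tested. The 3 M8 values lay above the 3 parental values for H2-T23 and Tap1 and below them for H2-D1 and Tap2, against 24.8% and 20.4% of all genes tested (45.2% in either direction), and 5 overlapped. Cd1d1 was not tested. Fold changes are on the log2(FPKM + 1) scale, which understates the change of low genes, and are given with their standard error (SE).

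H2-T23 encodes Qa-1, a nonclassical heavy chain that presents leader peptides of other class I molecules to the CD94/NKG2A receptor of NK cells. It was measured at 10.7, 11.2 and 8.97 FPKM in the parental samples and at 14.0, 14.4 and 15.3 FPKM in M8. The lines did not overlap, and the parental mean of 10.3 ± 1.17 FPKM (SD, n = 3) compared with 14.5 ± 0.646 FPKM in M8 (SD, n = 3). Its log2 fold change was 0.46 (SE 0.077, adjusted p = 0.00289 in limma), a ratio of 1.22 to 1.56 in the 95% interval on that scale. H2-T24, a further nonclassical gene, was also higher (0.43, adjusted p = 0.0117).

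H2-D1 was measured at 726, 725 and 755 FPKM in the parental samples and at 638, 681 and 685 FPKM in M8. All M8 values were below the parental ones, and the mean was 735 ± 17.5 FPKM (SD, n = 3) against 668 ± 25.9 FPKM (SD, n = 3). The difference was small, with a log2 fold change of -0.14 (SE 0.043, adjusted p = 0.0383 in limma), and the 95% interval of the ratio was 0.850 to 0.971. Without M8 replicate 1, the lowest of the M8 values, the change was -0.11 and the adjusted p 0.161, so the call was lost.

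H2-K1, the K-locus classical heavy chain, was measured at 8.39, 7.65 and 13.6 FPKM in the parental samples and at 10.3, 12.3 and 12.1 FPKM in M8. Parental replicate 3 was the highest of all samples and the lines overlapped, and the change of 0.24 did not pass (SE 0.17, adjusted p = 0.306 in limma, ratio interval 0.911 to 1.54). Without that replicate it was 0.48 (adjusted p = 0.00659), whereas it was 0.16 without parental replicate 1 (adjusted p = 0.568) and 0.098 without parental replicate 2 (adjusted p = 0.703). H2-L, a classical gene of the d haplotype, was measured at 2.18, 3.06 and 9.21 FPKM in the parental samples and at 3.37, 1.66 and 1.79 FPKM in M8. The gene annotation used here for positions had no entry for H2-L, and the assignment of reads to it was not tested. Here too parental replicate 3 was the highest, and the change of -0.68 did not pass (SE 0.37, adjusted p = 0.201, ratio interval 0.351 to 1.12). It was -0.17 without parental replicate 3 (adjusted p = 0.577) and -1.02 without parental replicate 1 (adjusted p = 0.0637).

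Summed over H2-K1, H2-D1 and H2-L, the level was 736, 735 and 778 FPKM in the parental samples and 652, 695 and 698 FPKM in M8. The groups did not overlap, and M8 was lower by 68.2 FPKM (exact two-sided permutation p = 0.1, the smallest that 3 samples against 3 allow). H2-M3, which presents N-formylated peptides, was measured at 36.5, 37.0 and 43.3 FPKM in the parental samples and at 38.1, 39.3 and 39.5 FPKM in M8. The lines overlapped, with a log2 fold change of 0.0048 (SE 0.064, adjusted p = 0.964 in limma), whose sign flipped under 3 scalings, and a ratio interval of 0.909 to 1.11. Parental replicate 3 held the highest parental value of H2-D1, H2-K1, H2-L and H2-M3, and the lowest parental value of H2-T23, Tap1, Tap2, Erap1 and Nlrc5.

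The transporter subunits Tap1 and Tap2 together form the TAP heterodimer. Tap2 was lower in M8, and Tap1 did not pass. Tap1 was measured at 36.2, 37.5 and 34.8 FPKM in the parental samples and at 37.6, 40.3 and 39.4 FPKM in M8. The M8 values were all higher but did not pass (log2 fold change 0.11, SE 0.047, adjusted p = 0.106 in limma, ratio interval 1.004 to 1.16). Tap2 was measured at 68.5, 64.2 and 60.7 FPKM in the parental samples and at 57.8, 58.7 and 55.2 FPKM in M8. All M8 values were lower, and Tap2 fell by 0.17 on the log2 scale (SE 0.051, adjusted p = 0.0362, ratio interval 0.822 to 0.964). Without M8 replicate 3 the change was -0.14 and the adjusted p 0.117. The log2 ratio of Tap1 to Tap2 within a sample, which a single scaling factor per sample leaves as it is, was -0.92, -0.78 and -0.81 in the parental samples and -0.62, -0.54 and -0.48 in M8. The lines did not overlap, and the difference was 0.28 (exact two-sided permutation p = 0.1, the smallest possible).

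Erap1, the peptidase that trims peptides in the endoplasmic reticulum, was measured at 18.4, 17.2 and 15.3 FPKM in the parental samples and at 18.3, 18.1 and 19.5 FPKM in M8. The lines overlapped and the change of 0.13 did not pass (SE 0.068, adjusted p = 0.180 in limma, ratio interval 0.985 to 1.22). It was 0.19 without parental replicate 1 (adjusted p = 0.0617) and 0.061 without parental replicate 3 (adjusted p = 0.461). Nlrc5 was measured at 5.86, 5.04 and 4.90 FPKM in the parental samples and at 4.77, 5.20 and 4.88 FPKM in M8. The lines overlapped, with a log2 fold change of -0.071 (SE 0.077, adjusted p = 0.515) and a ratio interval of 0.844 to 1.07. It was -0.0046 without parental replicate 1 and -0.11 without parental replicate 3, and was called in neither. Its class II relative Ciita was listed at 0.00799 FPKM in parental replicate 1 and at 0 in the other 5 samples.

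**Figure D2:**
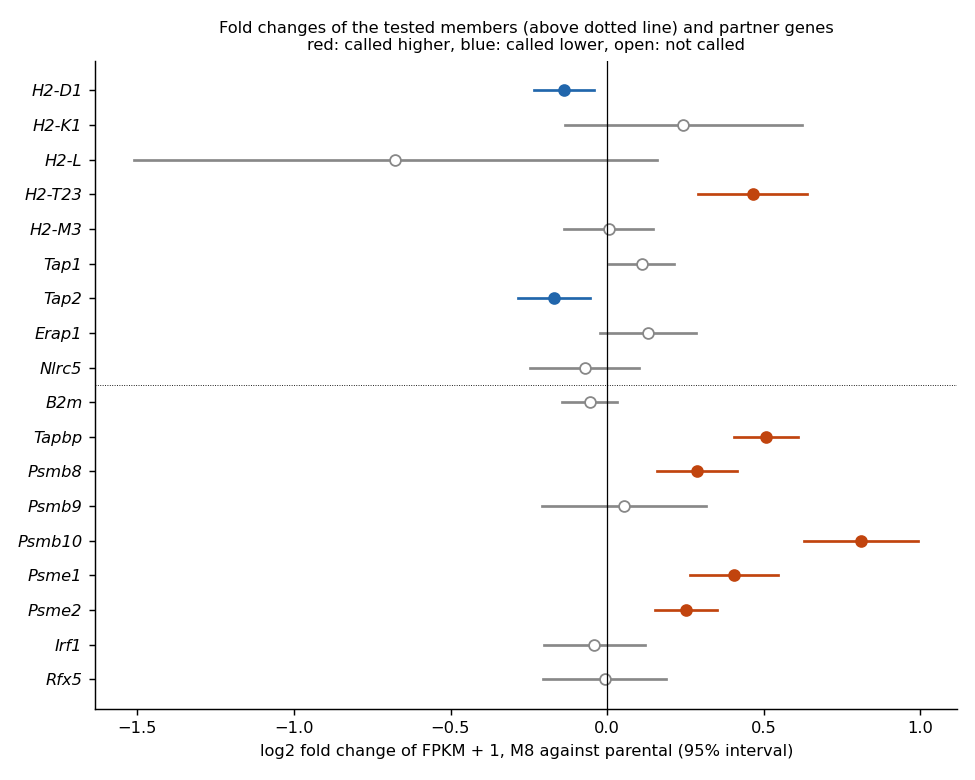
The log2 fold change of FPKM + 1 in M8 against parental, with its 95% interval, is plotted for the 9 tested members above the dotted line and for 9 partner genes below it. Red marks genes called higher, blue genes called lower and open points genes not called. H2-T23 is the member farthest to the right at 0.46, and H2-L has the widest interval.

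**Figure D3:**
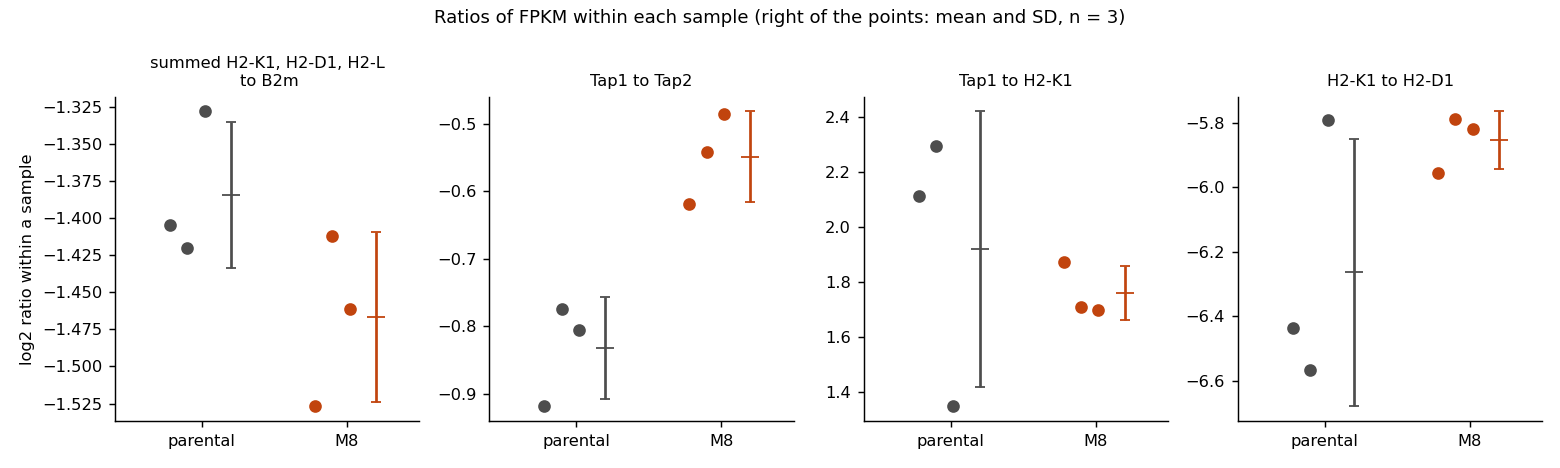
Log2 ratios of FPKM within each sample are plotted for 4 gene pairs, with the mean and SD (n = 3) to the right of the points. Only the Tap1 to Tap2 panel shows parental and M8 points apart, at -0.92 to -0.78 against -0.62 to -0.48, and in the other 3 panels the points overlap.

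The summed classical heavy chains were set against B2m, the common light chain, which was measured at 1949, 1968 and 1954 FPKM in the parental samples and at 1878, 1850 and 1923 FPKM in M8. B2m did not pass (log2 fold change -0.055, limma adjusted p = 0.316), although all M8 values were lower. The log2 ratio of the sum to B2m was -1.40, -1.42 and -1.33 in the parental samples and -1.53, -1.41 and -1.46 in M8, which overlapped (difference -0.082, exact permutation p = 0.2). The difference was -0.052 without M8 replicate 1, -0.054 without parental replicate 3 and -0.110 without M8 replicate 2. The log2 ratio of H2-K1 to H2-D1 was -6.26 in parental cells and -5.85 in M8 as means (difference 0.41, exact permutation p = 0.3, and 0.26 to 0.65 with 1 library left out, the lowest without parental replicate 2 and the highest without parental replicate 3), and that of Tap1 to H2-K1 1.92 and 1.76 (difference -0.16, exact permutation p = 0.6). These groups overlapped in each case.

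The other genes of the class I pathway were taken from lists of 82 genes, of which 60 were tested, 20 were higher and 9 lower in M8, where 2250 and 1745 of all 10597 genes tested were. Their median log2 fold change was 0.045, and other scalings moved these counts to 13 higher under quantile normalization (1822 of all genes) and to 15 lower under TPM (2209 of all genes). The immunoproteasome and proteasome activator list, which includes the inducible catalytic subunits that favour cuts suited to class I peptides, had 6 of 7 genes higher, none lower and a median of 0.25, beside 21.2% higher, 16.5% lower and a median of 0.0069 over all genes tested. Psmb10, the MECL-1 subunit, was measured at 17.4, 14.1 and 14.9 FPKM in the parental samples and at 30.0, 28.1 and 25.6 FPKM in M8, a log2 fold change of 0.81 (SE 0.081, adjusted p = 0.000311 in limma). Psmb8, the LMP7 subunit, rose by 0.29 (adjusted p = 0.00628), and Psmb9, the LMP2 subunit that lies beside Tap1, was 10.7, 10.2 and 14.3 FPKM in the parental samples and 11.04, 11.7 and 13.7 FPKM in M8 and did not pass (0.054, adjusted p = 0.759). The activator subunits Psme1 (0.41, adjusted p = 0.00215) and Psme2 (0.25, adjusted p = 0.00355) were also higher, and were named after their values were seen.

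Among 10 genes of peptide loading and quality control in the endoplasmic reticulum, 2 were higher, 1 lower and 7 not called (median -0.021), where 21.2% of all genes tested were higher and 16.5% lower. Tapbp, or tapasin, which bridges TAP and the heavy chain, was measured at 86.8, 88.7 and 83.0 FPKM in the parental samples and at 123, 128 and 118 FPKM in M8. The lines stood well apart, with a log2 fold change of 0.51 (SE 0.045, adjusted p = 0.000206 in limma). Tapbpl, its relative and a peptide editor, was also higher (0.46, adjusted p = 0.00436), and named after its values were seen. The chaperone Canx was lower (-0.11, adjusted p = 0.0590), a call lost in 5 of 17 alternatives. Of 8 peptidases, read against the same shares, 3 were higher, 2 lower and 3 not called, led by Dpp9 (0.25, adjusted p = 0.00480) and by Lnpep (-0.26, adjusted p = 0.0131), which trims peptides in endosomes.

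**Figure D4:**
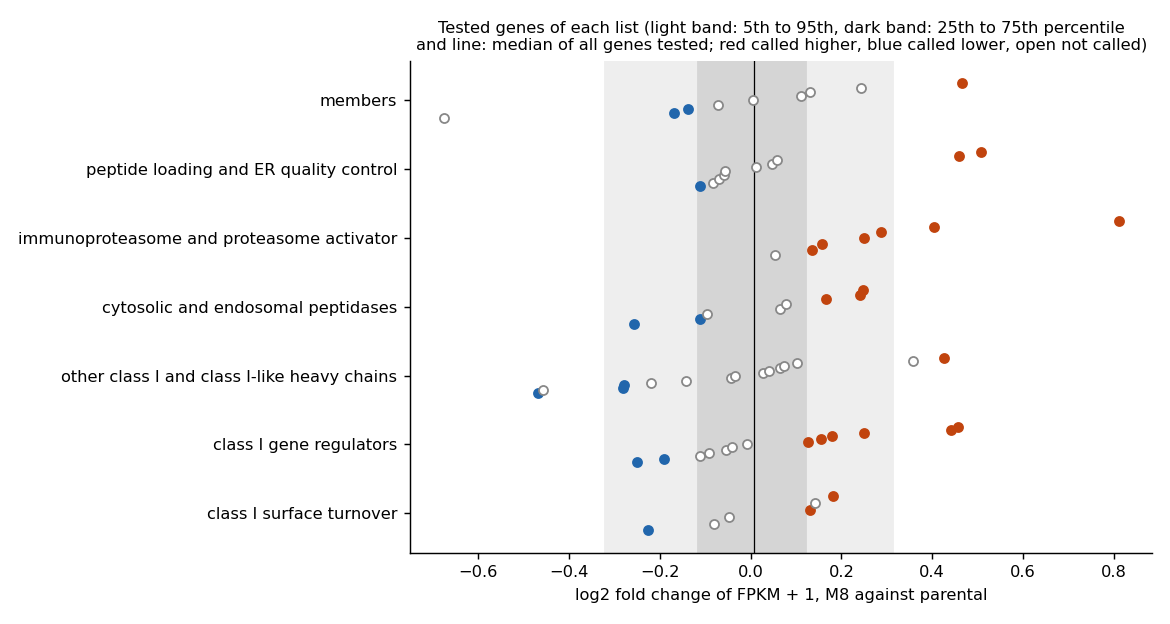
Each point is the log2 fold change of FPKM + 1 of 1 tested gene in M8 against parental, in rows by list, with red called higher, blue called lower and open not called. The light band holds the 5th to 95th percentile, the dark band the 25th to 75th and the line the median of all genes tested, and 6 of the 7 immunoproteasome and activator genes are red.

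Of 29 other class I and class I-like heavy chains, 15 were tested, 1 was higher and 3 lower (median -0.035), against 21.2% and 16.5% of all genes tested. In every sample 13 were under 1 FPKM, and 6 of these were at 0. H2-T24 was the one higher, and Procr, the endothelial protein C receptor, fell the furthest (-0.47, limma adjusted p = 0.0124). Fcgrt, the IgG receptor FcRn, fell by 0.28 (adjusted p = 0.00516) and was named after its values were seen. Mr1 itself was measured at 1139, 1057 and 1046 FPKM in the parental samples and at 1095, 1035 and 1034 FPKM in M8, which overlapped. Of 8 ligands of the NK receptor NKG2D, 7 were under 1 FPKM in every sample, and Ulbp1 did not pass (-0.030).

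Of 14 regulators of class I genes, 13 were tested, with 6 higher, 2 lower and 5 not called (median -0.0081), beside 21.2% higher and 16.5% lower of all genes tested. Nfyc and Nfyb, subunits of the factor that binds the Y box, differed in direction, at 0.44 (adjusted p = 0.00102 in limma) and -0.25 (adjusted p = 0.00791). Nfyc was named after its values were seen. Irf1 (-0.041, adjusted p = 0.704) and Rfx5, an X box factor (-0.0081, adjusted p = 0.954), did not pass, and both changed sign in some alternatives. In the list of class I surface turnover, 2 of 6 were higher and 1 lower (the same shares of all genes tested apply), with Stub1 higher (0.18, adjusted p = 0.0135) and Susd6, a negative regulator of surface class I, lower (-0.23, adjusted p = 0.0232).

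**Figure D5:**
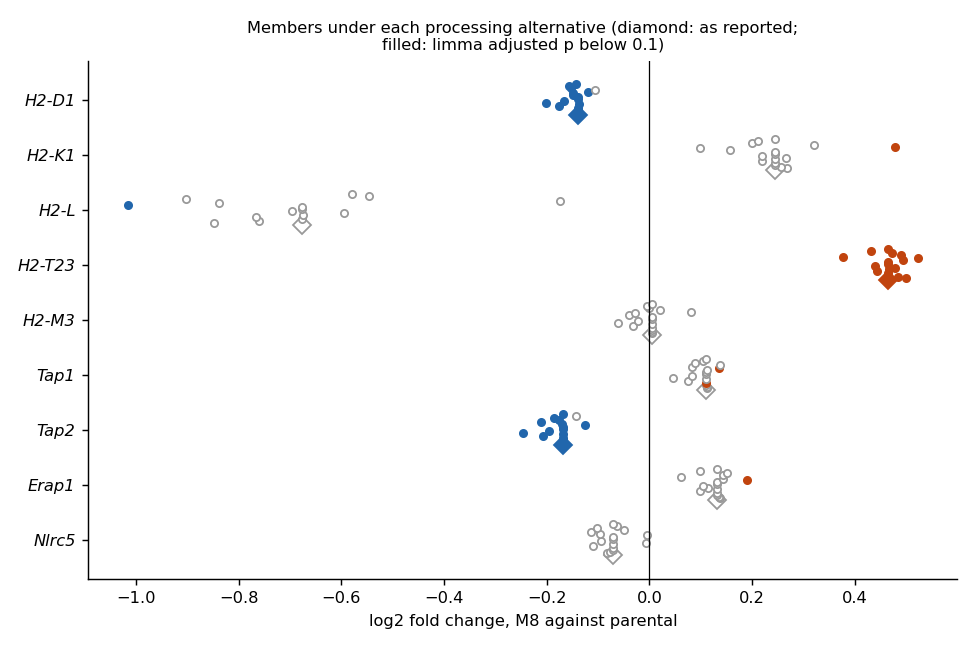
The log2 fold change of each tested member is plotted as reported (diamond) and under each processing alternative (circles), filled where the limma adjusted p was below 0.1. H2-T23 stays between 0.38 and 0.52 and is filled in all 17, while H2-K1 is filled once.

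Across the 6 samples, the genes whose log2(FPKM + 1) varied most like that of Nlrc5, among 8546 compared, were Fbxo42 (Pearson's r 0.985), Ap4e1 (0.974), Slu7 (0.961), Hoxa9 (0.960) and B230118H07Rik (0.958). Of the other genes described here, Tap2 came closest to it, with r 0.79 and rank 227. For H2-K1 they were Mrpl14 (0.994), Cnpy3 (0.988), 1110004E09Rik (0.985), Arfgap3 (0.984) and 2310009B15Rik (0.982), and H2-M3 came closest among the genes described here with r 0.88 and rank 97. These values describe 6 libraries that fall into 2 lines, and they carry no test.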

How the data were processed

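The authors prepared stranded mRNA libraries, sequenced them as 101-base single reads and deposited FPKM values for each sample. Per the labels' processing notes, the tools were TopHat2 2.1.1, Bowtie2 2.2.8, SAMtools 0.1.18 and Cuffdiff 2.2.1 with the genome mm10, and the gene annotation is not given in the sources used here. FPKM are not counts, so differences were tested with limma 3.58.1 in R 4.3.3 on log2(FPKM + 1), using eBayes with a mean-variance trend, on genes with a mean of at least 1 FPKM, with Benjamini-Hochberg adjustment and a threshold of 0.1. The fit was tested on simulated data. Single values were compared by exact permutation tests in scipy 1.17.1, and tables and figures were made with pandas 2.3.3 and matplotlib 3.10.9 in Python 3.11.15. All 6 samples were used, and the study calls the 3 samples of a line biological replicates. Separate cultures are not described for them, so p-values measure the spread between these samples.

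The members and lists were chosen with earlier results of these data known, and the motifs after the promoters had been read. Named genes are all 10 members, B2m, Tapbp, Psmb8, Psmb9, Psmb10, Irf1, Rfx5 and Ciita, the most changed gene called in each direction in each list, and the 5 genes most like Nlrc5 and H2-K1 with a mean of at least 5 FPKM, and 1 gene that the rule covers is not reported here. The alternatives were other pseudocounts and filters, other scalings, eBayes without a trend, a replicate block, H2-D1 and H2-L added, and each replicate left out.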

Additional observations from a re-analysis of the deposited data

How the results depend on the processing

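Of 151 values for the 9 tested members under 17 alternatives, 137 kept their direction and their side of the threshold, 2 lost the call, 5 gained it and 7 changed sign. H2-T23 was called in all 17 (0.38 to 0.52), and H2-D1 (-0.20 to -0.11) and Tap2 (-0.25 to -0.12) in 16. H2-K1, H2-L, Tap1 and Erap1 were each gained in 1 or 2: H2-K1 without parental replicate 3, H2-L and Erap1 without parental replicate 1, and Tap1 at a mean of at least 5 FPKM (adjusted p = 0.0985) and without parental replicate 2 (0.0942), while quantile normalization gave Tap1 0.046 (0.519). Members called higher were 2 at a mean of at least 5 FPKM and 1 to 2 with a replicate left out, and members called lower 1 to 3. B2m was called under TPM (-0.093, adjusted p = 0.0729). Stub1 lost its call under quantile normalization (0.076, adjusted p = 0.209). H2-M3 was -0.032 under TPM, -0.061 under quantile normalization, -0.022 under upper-quartile scaling and -0.039 to 0.082 with a replicate left out. Rfx5 was 0.073 under quantile normalization, and with a replicate left out Rfx5 ranged from -0.082 to 0.054, Psmb9 from -0.032 to 0.19, Irf1 from -0.091 to 0.023 and the log2 ratio of Tap1 to H2-K1 from -0.44 to 0.030. The causes were not tested.

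Over all genes, 2250 were higher and 1745 lower (56.3% of calls higher), against 1658 and 2209 (42.9%) under TPM and 1848 and 2154 (46.2%) under upper-quartile scaling. With a replicate left out, 1609 to 2101 were higher and 1157 to 1672 lower, the fewest lower without M8 replicate 1. Of the other class I pathway genes, 13 were higher under quantile normalization and 15 lower under TPM. The replicate numbers are not stated to pair the samples. Deviations of same-numbered samples correlated at 0.10, -0.106 and -0.033, and those of other-numbered samples at -0.13 to 0.18. So few values cannot decide whether the samples were paired. The fit with a replicate block called 2171 genes higher and 1688 lower. FPKM limit low genes most, here H2-L and Cd1d1.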
